A study of Homo sapiens with 6 samples.

Results

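Mitochondrial ribosomal protein genes are nuclear genes whose products are imported into mitochondria, where they build the ribosome that translates the few messages of the mitochondrial genome. Members were the autosomal protein-coding genes of hg19 whose symbol begins with MRPL or MRPS followed by a digit. These symbols are named for the large and the small subunit. There were 78 such genes, 49 MRPL and 29 MRPS, among 19229 autosomal protein-coding genes. Because the genes lie on almost all chromosomes and are used in nearly every cell type, their starts are a set of housekeeping promoters. Such promoters are usually rich in CpG, lack a TATA box and lie in open chromatin.

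Accessibility was measured by ATAC-seq, in which a transposase inserts adapters into open DNA, in GM12878, an established human B lymphoblastoid cell line immortalized with Epstein-Barr virus. All cells were fixed with formaldehyde, and the protocols differed in how the crosslinks were reversed, among other steps. In 2 libraries the old buffer, which holds SDS, was used and the DNA was purified. In the other 4 a new SDS-free buffer was used, followed by purification in 2 and by barcoding PCR straight away in 2, which is the bulk form of the Pi-ATAC workflow. The comparisons ask whether the accessible sites that are recovered differ between these protocols. Per the methods of the study, the buffers also differed in salt and in other detergents. In the unpurified workflow the lysis buffer was changed too, and cells were quenched with EDTA and pelleted before reversal. Effects of SDS or of purification alone therefore cannot be told apart from those of the other steps. Nothing in the labels says that replicates came from separate cultures, so their spread may be technical.

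The values came from 1 MACS2 peak list per library, with 30136 to 38023 peaks each. The peak lists hold no read totals. The lowest local background, a relative measure of depth, was 1.51 to 1.86 reads, and the median summit had 20 to 22 reads. Among B cell markers, the start of MS4A1 (CD20) had a peak in 6 of 6 libraries and CD79A in 4, whereas CD79B and PAX5 had 1 in 1 library each and CD22 in none. No library had a peak at the start of the T cell genes CD3D, CD3E and CD2, the erythroid gene HBB or the epithelial genes EPCAM, KRT8 and CDH1. Of the myeloid markers, LYZ and CSF1R were not called, while CD14 was called in 4 libraries with the summit on average 916 bp from its start.

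The sequences next to 6 starts show the range of promoters behind the values that follow. Each is given 5′ to 3′ on the strand stated beside it, from the GRCh37 reference (the same build as hg19). That strand is the strand of the gene named, and for the last sequence the strand of MRPS11. Capitals mark matches on either strand to CCGGAAGT, the ETS family motif, GCGCANGCG, the NRF1 motif, or AANATGGCG, the YY1 motif. NRF1 and the ETS factor GABP are regulators long linked to nuclear genes for mitochondrial proteins. MRPL50 and MRPL17 had some of the strongest peaks, MRPL20 and MRPL22 were among the weakest peaks found in all libraries, and MRPL27 had none. For these members the 150 bases before the canonical transcript start are printed, except for MRPL27, where the 44 bases between it and the opposing start of EME1 are shown. The last sequence, chosen after its values were seen, is the stretch of 62 bases between the MRPL46 and MRPS11 gene starts, 2 members that share a promoter.
MRPL50, chr9:104160901-104161050, minus strand: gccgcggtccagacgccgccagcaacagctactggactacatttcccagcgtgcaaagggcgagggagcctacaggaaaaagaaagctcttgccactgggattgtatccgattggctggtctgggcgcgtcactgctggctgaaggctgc
MRPL17, chr11:6704572-6704721, minus strand: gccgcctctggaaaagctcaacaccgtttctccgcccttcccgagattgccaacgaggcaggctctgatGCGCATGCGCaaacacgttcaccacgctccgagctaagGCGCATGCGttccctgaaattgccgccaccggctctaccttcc
MRPL20, chr1:1342674-1342823, minus strand: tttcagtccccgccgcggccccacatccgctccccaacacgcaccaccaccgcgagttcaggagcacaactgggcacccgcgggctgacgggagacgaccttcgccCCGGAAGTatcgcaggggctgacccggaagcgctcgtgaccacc
MRPL22, chr5:154320483-154320632, plus strand: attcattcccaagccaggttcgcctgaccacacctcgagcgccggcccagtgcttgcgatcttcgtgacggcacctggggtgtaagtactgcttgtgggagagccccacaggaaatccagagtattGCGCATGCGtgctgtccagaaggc
MRPL27, chr17:48450546-48450589, minus strand: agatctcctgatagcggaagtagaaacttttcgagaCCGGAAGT
MRPL46-MRPS11, chr15:89010622-89010683, plus strand: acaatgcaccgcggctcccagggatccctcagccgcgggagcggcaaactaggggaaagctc
The MRPL17 stretch holds 3 NRF1 matches, 2 of which overlap on opposite strands within GCGCATGCGC, and MRPL22 holds 1, although the peak at MRPL17 was far stronger. The MRPL20 and MRPL27 stretches each hold an ETS match, and the first of these starts was called in 6 of 6 libraries and the second in none. A match describes the letters in the window and is not evidence of binding.

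Most mitochondrial ribosomal protein genes had an accessible start in every protocol. A start was called where a peak overlapped the 1 kb on either side of the 5′ end of the gene record. In the old buffer, 62 of 78 members (79.5%) were called in replicate 1 and 61 (78.2%) in replicate 2, against 48.2% and 46.6% of all autosomal protein-coding genes. In the new buffer with purification, 68 members (87.2%) and 60 members (76.9%) were called, against 50.0% and 47.0% of all genes. Without purification, 64 members (82.1%) and 67 members (85.9%) were called, against 49.7% and 49.5%. In each of the 6 libraries the share of members was above that of all genes, and 52 of 78 members (66.7%) were called in all 6, against 41.0% of all genes. Another 6 members (7.69%) were called in none, against 44.6%. No test was run on these shares, since the members were chosen with results of these data known.

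**Figure D1:**
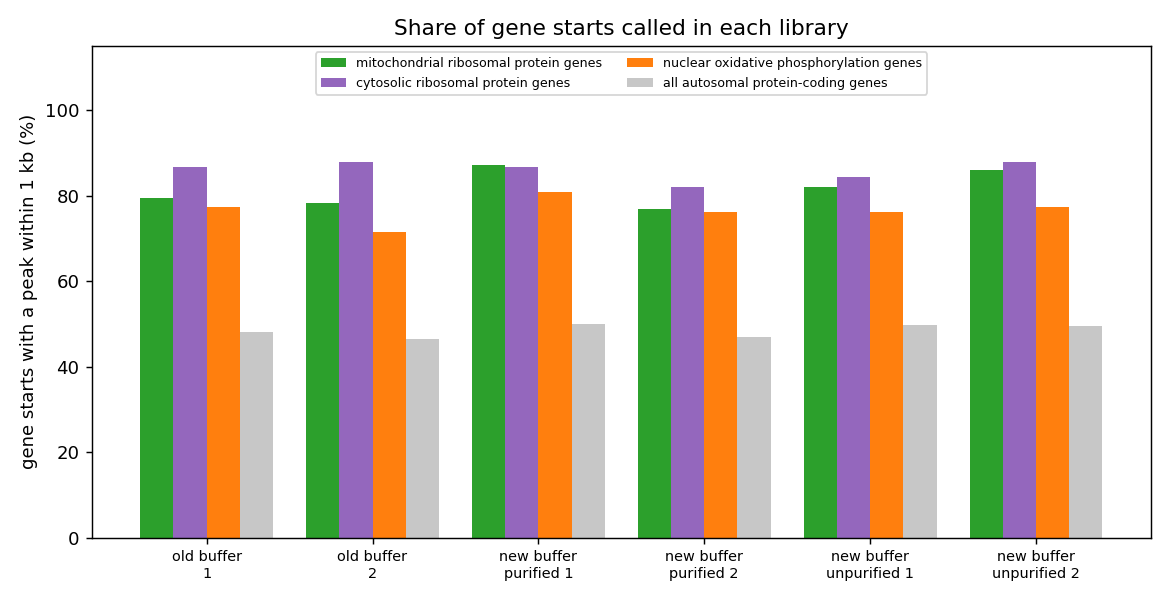
Percentage of gene starts with a peak within 1 kb (y axis) in each of the 6 libraries (x axis), for mitochondrial ribosomal protein genes, cytosolic ribosomal protein genes, nuclear oxidative phosphorylation genes and all autosomal protein-coding genes. Members lie between 76.9% and 87.2%, close to the other housekeeping lists, and all genes lie between 46.6% and 50.0%.

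Other housekeeping genes were called about as often. Among the 83 cytosolic ribosomal protein genes, 63 were called in all 6 libraries and 7 in none, and among the 84 nuclear genes for oxidative phosphorylation subunits, 55 were called in all 6 and 14 in none. MRPL and MRPS genes were called in similar shares, with 32 of 49 MRPL genes (65.3%) and 20 of 29 MRPS genes (69.0%) found in all libraries. The list of 16 mitochondrial translation factors had 13 genes called in all libraries, among them GFM1, MTRF1L and GUF1. Of the 24 measured assembly factors, which process and fold the ribosomal RNA, 17 were called in all, and the mean −log10 q of TFB1M, a ribosomal RNA methyltransferase, was 72.0. The 5 mitochondrial ribosomal proteins with other symbols were more mixed. PTCD3 and AURKAIP1 were called in 6 libraries, DAP3 in 5, CHCHD1 in 1 and GADD45GIP1 in none.

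The strength of the peaks varied widely from member to member. MACS2 gives the −log10 q of the summit, and the number of reads at the summit was solved from the deposited fold enrichment and p-value. The 6 strongest members by mean −log10 q were MRPL50 (66.8 ± 12.1, SD, n = 6), MRPS9 (66.3 ± 11.3), MRPS30 (55.1 ± 5.04), MRPL17 (45.7 ± 6.10), MRPL18 (44.2 ± 5.24) and MRPS14 (39.1 ± 9.35). MRPS9, MRPL17, MRPL18 and MRPS14 have counterparts in bacterial ribosomes, whereas MRPL50 and MRPS30 are proteins added to the mitochondrial ribosome, and MRPS30 sits in the large subunit despite its name.

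At MRPL50 the summit held 114 and 91 reads in the old buffer, 118 and 88 in the new buffer with purification and 116 and 90 without purification. The 2 replicates of each protocol differed more than the protocols did, replicate 1 being the higher in all 3. At MRPS9 the summit held 110 and 80 reads in the old buffer, 105 and 82 in the purified new buffer and 95 and 97 in the unpurified. At MRPS30 these were 88 and 79, 85 and 76, and 95 and 94 reads, so the unpurified libraries lay above the other 4. MRPL50 ranked on average at the 99.55th percentile of its library's peaks by −log10 q (100 being the strongest peak), and MRPS9 at 99.57. In the genome, MRPL50 starts 233 bp from ZNF189, a zinc finger gene on the opposite strand, and no protein-coding gene opposes MRPS9 or MRPS30 within 1 kb.

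**Figure D2:**
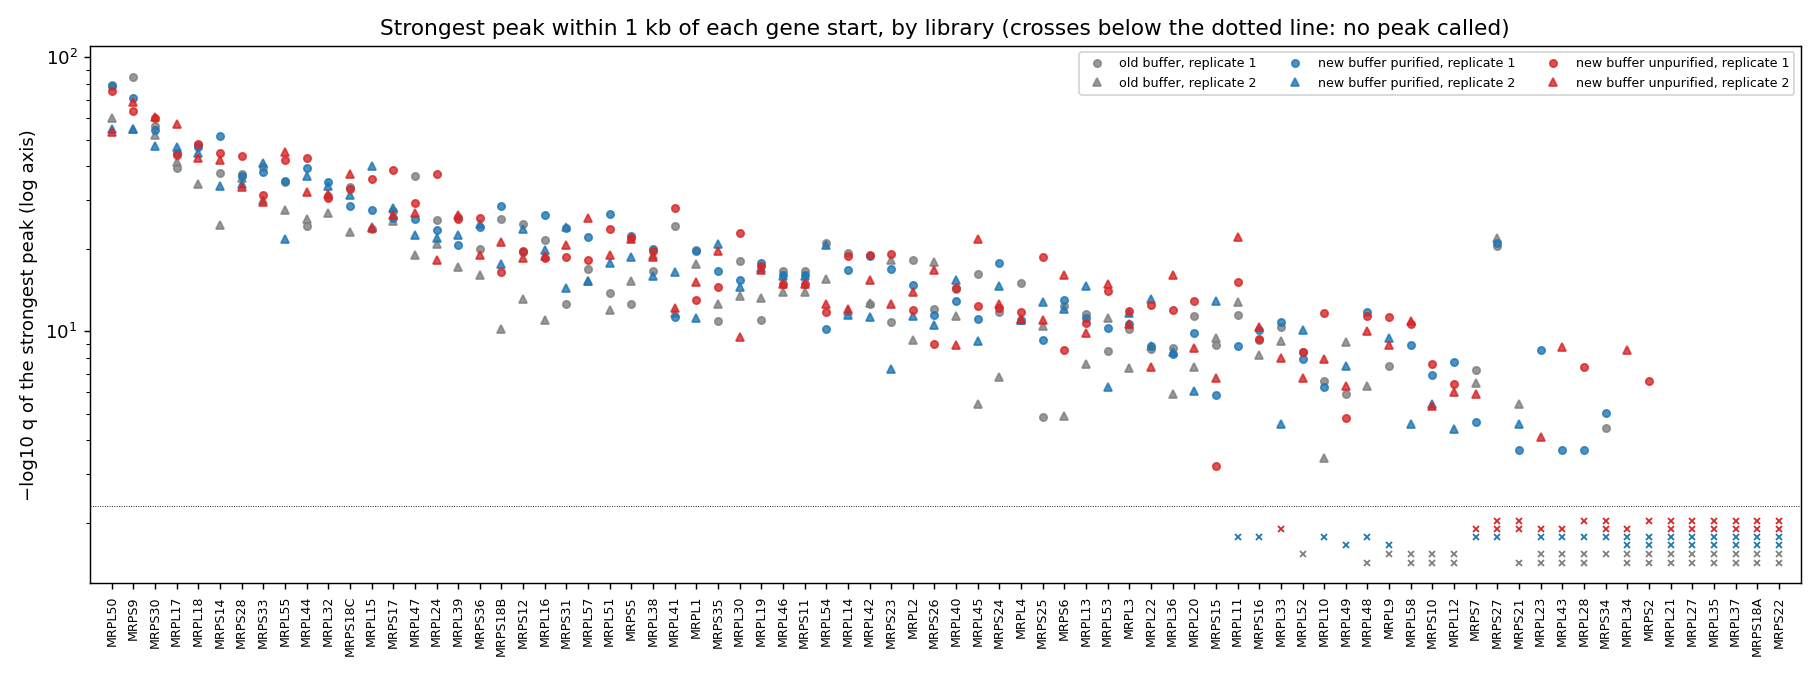
The −log10 q of the strongest peak within 1 kb of the gene start (y axis, log scale) for each of the 78 members (x axis, ordered by the number of libraries with a call and then by mean −log10 q). Colours give the protocol and marker shapes the replicate, and crosses under the dotted line are libraries with no call. MRPL50, MRPS9 and MRPS30 stand at the left, and 6 members at the right have crosses only.

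Among members called in all 6 libraries, the weakest were MRPS15 (mean −log10 q 7.85 ± 3.34, SD, n = 6), MRPL20 (9.38 ± 2.52), MRPL36 (9.85 ± 3.57) and MRPL22 (9.87 ± 2.32), which all have bacterial counterparts. At MRPS15 the −log10 q was 8.91 and 9.43 in the old buffer, 5.85 and 12.92 in the purified and 3.23 and 6.74 in the unpurified new buffer. Both unpurified values were below both old buffer values, while the purified replicates lay on either side of the old buffer values. At MRPL20 the −log10 q was 11.4 and 7.41, 9.85 and 6.07, and 12.9 and 8.70 in the same order, and all protocols overlapped. The summits at these 2 starts held 10 to 25 reads.

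Peaks at called members were slightly narrower and lower in rank than those at all called genes, and their summits lay closer to the gene start. The median width at members was 556 to 648 bp across libraries, against 561 to 650.5 bp at all called gene starts, and the median rank percentile was 69.0 to 74.7, against 73.5 to 76.7. Within each library both medians were lower at members, in 6 of 6 libraries, by 2 bp in width in unpurified replicate 1. The median distance of the summit from the gene start was 71.5 to 92 bp, against 107 to 110 bp, and was smaller at members in 6 of 6 libraries. Measured from canonical starts it was 82 to 105 bp at members and 103 to 108 bp at all genes, smaller at members in each library but by only 2 bp in old buffer replicate 1 and unpurified replicate 2. Between 54.8% and 65.0% of called members had the summit within 100 bp, against 46.6% to 47.6% of all called genes. At canonical starts these shares were 46.9% to 64.2% and 46.9% to 48.7%, and in old buffer replicate 1 members were the lower. Cytosolic ribosomal protein genes had medians of 88 to 124 bp and oxidative phosphorylation genes 82 to 106 bp, and both ranges overlap that of the members. Of the called members, 17.9% to 25.0% had a peak in the top decile of its library by −log10 q, against 24.8% to 27.0% of all called genes, and the share was lower at members in 6 of 6 libraries.

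At gene starts, MRPS genes had broader peaks than MRPL genes in all 6 libraries. In the old buffer the median widths were 598 and 654.5 bp at MRPS genes and 574.5 and 446 bp at MRPL genes. In the purified new buffer they were 658.5 and 698.5 bp against 558 and 510.5 bp, and in the unpurified 759 and 793 bp against 602 and 555.5 bp. The same genes are measured in every library, so the 6 values are not independent, and no test was made. At canonical starts the order was reversed in old buffer replicate 1, with 565 bp at MRPS and 586 bp at MRPL genes. It held in old buffer replicate 2 (650 against 464 bp) and in the purified libraries (663 against 564.5 bp and 674 against 522.5 bp).

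**Figure D3:**
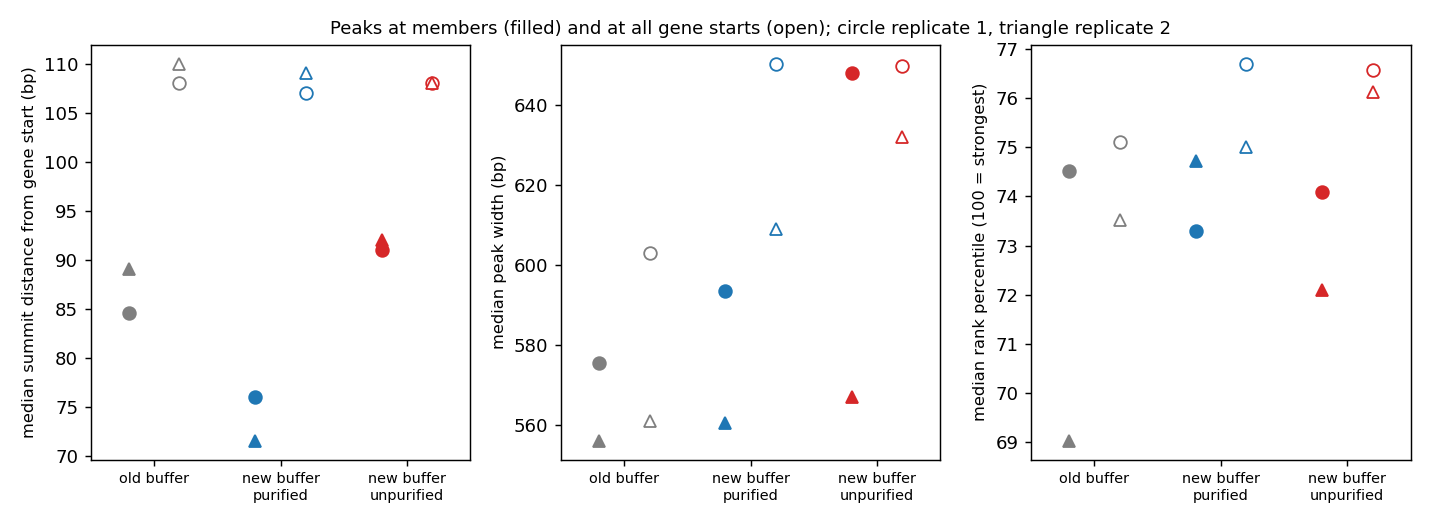
Median distance of the summit from the gene start in bp, median peak width in bp and median rank percentile (y axes, not starting at 0) by protocol (x axis), for called members (filled) and all called gene starts (open), 1 point per library. Summit distances of members lie between 71.5 and 92 bp, under the 107 to 110 bp of all genes, while the ranges of width and rank overlap although members lie lower within each library.

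The broadest peaks of members called in all libraries were at MRPL18 (mean 1235 ± 81.2 bp, SD, n = 6), MRPS30 (1044 ± 234 bp) and MRPS9 (898 ± 61.8 bp), and the narrowest at MRPL53 (328 ± 75.1 bp), MRPS15 (351 ± 107 bp) and MRPL22 (393 ± 70.0 bp). MRPL18 starts opposite TCP1, a subunit of the cytosolic chaperonin, with 865 bp between the canonical starts. The MRPL18 peak spanned 1143 and 1166 bp in the old buffer, 1347 and 1282 bp in the purified and 1287 and 1187 bp in the unpurified new buffer. In 5 libraries its summit was 3 to 65 bp upstream of the gene start, and in unpurified replicate 1 it was 609 bp downstream. The canonical MRPL18 start is 655 bp inside the gene record. The summit lay 46 to 720 bp upstream of that start, and 586 bp on average.

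The farthest summits among members called in all libraries were at MRPS18B (mean distance 371 bp), MRPL24 (368 bp) and MRPS24 (341 bp). At MRPS18B the summit lay upstream in every library, by 250 to 461 bp, on the side of the opposing gene PPP1R10, whose start is 597 bp away. At MRPL24 it lay 325 to 427 bp inside the gene, where the canonical transcript start is 502 bp from the gene start, and at MRPS24 it lay 266 to 462 bp inside, with the canonical start 376 bp away.

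The members without a call at the gene start fell into those that lacked a peak at any start examined and those whose gene record begins far from the usual transcript. MRPL21, MRPL27, MRPL35, MRPL37, MRPS18A and MRPS22 were called in no library. At the canonical transcript start, an alternative added after the data were seen, MRPL37 was called in 6 libraries and MRPS22 in 5. The MRPL37 gene record begins 16126 bp, and that of MRPS22 338214 bp, from the canonical start. MRPS22 is a mitochondrion-specific small subunit protein mutated in an inherited deficiency of oxidative phosphorylation. MRPL34 went from 1 to 6 libraries (13263 bp between the starts) and MRPS27, a protein with pentatricopeptide repeats, from 3 to 6 (1477 bp).

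**Figure D4:**
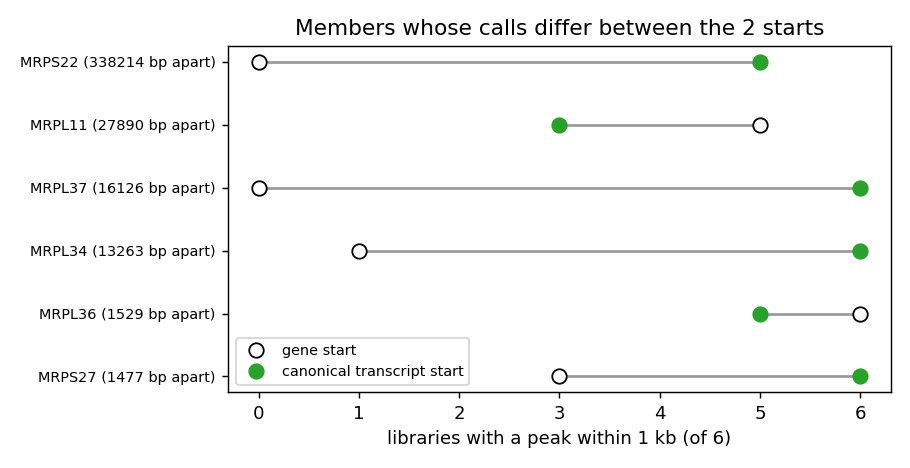
Number of libraries, of 6, with a peak within 1 kb (x axis) of the gene start (open) and of the canonical transcript start (filled), for the 6 members (y axis) where the counts differ, with the distance between the starts in bp. MRPS22, MRPL37, MRPL34 and MRPS27 were called in more libraries at the canonical start, and MRPL11 and MRPL36 in fewer.

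The other 2 members with a difference went down. MRPL11, a counterpart of the bacterial L11 protein where translation factors bind, was called in 5 libraries at the gene start and in 3 at the canonical start, 27890 bp away, so the values at the gene start do not describe its main promoter. MRPL36 went from 6 to 5 libraries. Counted at canonical starts, 54 members were called in all 6 libraries and 4 in none, against 43.4% and 41.6% of all genes.

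These 4 were MRPL21, MRPL27, MRPL35 and MRPS18A. The nearest peak to the MRPL27 gene start was 24093 to 27036 bp away in the 6 libraries, and to MRPL21 59701 to 144871 bp away. For MRPL35 it was 3584 to 3715 bp away in each library, and for MRPS18A 27279 to 57483 bp. No peak therefore lay just beyond the window at any of these starts. All 4 had a ratio of observed to expected CpG above 0.6 in the 1000 bp around the canonical start, as did 33.8% of all genes called in none. MRPL21 and MRPL27 have close opposing genes, IGHMBP2 at 59 bp and EME1 at 45 bp. A missing call is a peak that did not pass the threshold of the caller and does not show that the DNA was closed. Whether reads there were lost to the mapping or region filters was not tested.

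Other members hovered at the detection limit. MRPS2, MRPS34 and MRPS7 are small subunit proteins mutated in inherited oxidative phosphorylation disorders. MRPS2 was called only in unpurified replicate 1, with 17 summit reads at 564 bp from the gene start, and MRPS34 in replicate 1 of the old buffer and of the purified new buffer, with 14 reads in each. MRPS7 was called in both old buffer libraries with 15 and 14 reads, in purified replicate 1 with 12 and in unpurified replicate 2 with 14. The calls at these starts did not separate the protocols.

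MRPL23, MRPL28 and MRPL43 were each called in 2 libraries, with 10 to 17 summit reads. MRPL43 starts 46 bp from TWNK, the mitochondrial DNA helicase, and its 2 called summits lay 244 and 284 bp inside the gene. MRPL28 was called in replicate 1 of the purified and of the unpurified new buffer, with the summit 690 and 711 bp inside, near a canonical start 751 bp from the gene start. At each of the 3, replicates of the same protocol disagreed.

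The remaining members looked at for their known roles mostly had moderate peaks. MRPL44, which carries an RNase III-like fold, had a mean −log10 q of 33.6 ± 7.61 (SD, n = 6), with 46 and 46 summit reads in the old buffer, 62 and 61 in the purified and 68 and 57 in the unpurified new buffer. Both old buffer libraries were below the other 4. MRPS12, the counterpart of the bacterial decoding-site protein S12, had 39 and 26, 33 and 37, and 34 and 33 reads, and the protocols overlapped. It starts 181 bp from SARS2, the mitochondrial seryl-tRNA synthetase, on the opposite strand, and its summit lay 105 to 378 bp upstream of its own start. MRPL3 was called in 6 libraries with 16 to 24 summit reads. MRPS16 and MRPL10, whose bacterial counterpart L10 holds the ribosomal stalk, were called in 5, both missing in purified replicate 2, the library with the fewest peaks.

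The libraries recovered between 60 and 68 of these genes at the gene start. The share of members called was 78.8% ± 0.907 in the old buffer (SD, n = 2), 82.1% ± 7.25 in the purified and 84.0% ± 2.72 in the unpurified new buffer. Both unpurified libraries were above both old buffer libraries, while the purified replicates lay on either side of them. The number of peaks in a library moved with the purified values, since replicate 1 had the most peaks of all (38023) and replicate 2 the fewest (30136). With the 30136 strongest peaks of each library, the purified shares were 80.8% and 76.9%, and purified minus old buffer was 2.56 percentage points in place of 3.21. With 2 libraries against 2, the smallest two-sided p of an exact permutation test is 0.33, so none of these differences could pass that test at 0.05, and no other test was run on them.

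The median summit distance was 86.75 ± 3.18 bp in the old buffer, 73.75 ± 3.18 bp in the purified and 91.5 ± 0.707 bp in the unpurified new buffer (SD, n = 2). The purified libraries were below the other 4. The order of the old buffer and the unpurified new buffer depended on the start used, and the difference of 4.75 bp turned to -5.0 bp at canonical starts and -8.0 bp with the starts of all protein-coding transcripts. Median widths were 566 ± 13.8, 577 ± 23.3 and 608 ± 57.3 bp, and median rank percentiles 71.8 ± 3.88, 74.0 ± 1.01 and 73.1 ± 1.42, and the libraries of the protocols overlapped in both.

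Few starts were called in both libraries of a protocol and neither of another. MRPS10, MRPL58 and MRPL12 were called in both purified and both unpurified new buffer libraries and in neither old buffer library. That is 3 of 78 members, where 0.697% of all genes had such calls in the purified and 1.0% in the unpurified new buffer. MRPL12 forms the flexible stalk of the ribosome and binds the mitochondrial RNA polymerase, and MRPL58 is a peptidyl-tRNA hydrolase that frees stalled ribosomes. MRPL12 had 16 and 12 summit reads in the purified and 14 and 15 in the unpurified libraries. MRPL58 had 16 and 11, and 19 and 19, and MRPS10 had 14 and 12, and 16 and 13 reads. All 12 summits held few reads, and the lowest summit called in the old buffer libraries had 9 reads. In purified replicate 2 the −log10 q was 4.38 at MRPL12 and 4.57 at MRPL58, so with a minimum of 5 both were called in 3 libraries, while MRPS10 was still called in 4.

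No member was called in both old buffer libraries and neither purified library (0.385% of all genes), and 1, MRPS27, in both old buffer libraries and neither unpurified library (0.276%). The MRPS27 call turned on the window, since its peak lay at 938 to 1202 bp from the gene start in all 6 libraries, and it was called in all 6 with a window of 2 kb. MRPS21 was called in both purified and neither unpurified library (0.338% of all genes), with 10 and 11 reads, and in 1 library in all at a −log10 q of at least 5. No member showed the opposite (0.666%).

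At starts with a peak in all libraries, no difference in the fold enrichment of the summit between protocols was detected. Peaks of all libraries were merged into regions, and the log2 fold enrichment of the 20064 regions called in all 6 was compared with limma after centring each library on its median. Of these regions, 52 lay at members, 1 of them shared by MRPL46 and MRPS11. No region at a member, and no region at all (0.0% in each comparison), had a Benjamini-Hochberg adjusted p under 0.05. At an unadjusted p under 0.05 there were 2 regions at members and 1376 in all for the purified new buffer against the old buffer. For the unpurified new buffer these were 0 and 1309 against the old buffer and 0 and 961 against the purified.

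The lowest adjusted p at members in limma was 0.645, for MRPS24, the counterpart of bacterial S3. Its fold enrichment was 6.80 and 5.06 in the old buffer, 8.29 and 8.22 in the purified and 6.54 and 6.79 in the unpurified new buffer, and the purified value was higher than the old by 0.50 ± 0.18 on the log2 scale (SE). The purified libraries were above the other 4. MRPL51 followed with a log2 difference of 0.37 ± 0.17 (limma adjusted p = 0.722). The log2 differences at members ran from -0.31 to 0.50, with a median of 0.05, for purified against old. They ran from -0.36 to 0.41 (median 0.05) for unpurified against old, and from -0.44 to 0.35 (median -0.01) for unpurified against purified. The first 2 comparisons share the old buffer libraries, and medians over all regions were within 0.003 of 0.

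**Figure D5:**
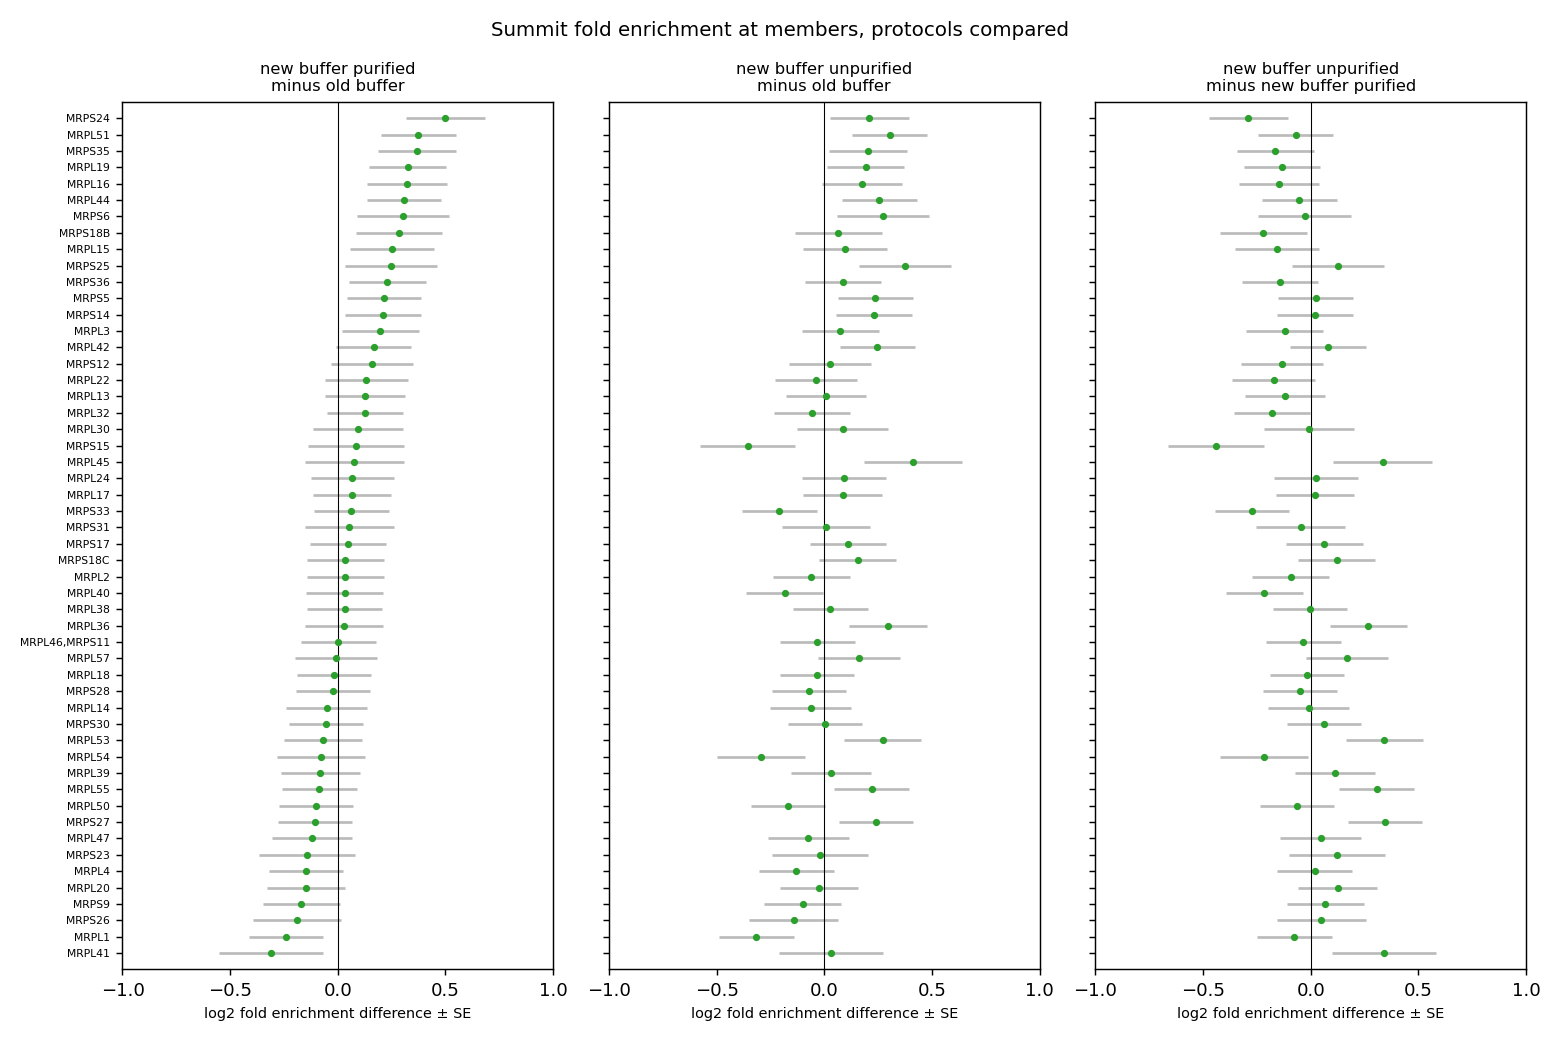
Difference in log2 fold enrichment of the summit (x axis, points with ± SE) for the 52 regions at members (y axis) in the 3 comparisons of protocols. Values lie between -0.44 and 0.50 and none had an adjusted p under 0.05.

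Some promoter features that the choice by symbol did not use differed between members and all genes. In the 1000 bp around canonical starts the median GC content was 57.2% at members and 61.4% at all genes. The ratio of observed to expected CpG was above 0.6 at 91.0% of members and 66.5% of all genes. Neither was particular to members. Cytosolic ribosomal protein genes had a median GC content of 57.9% and a CpG share of 98.8%. For oxidative phosphorylation genes these were 58.85% and 94.0%. Among starts called in all 6 libraries the CpG share was 92.6% at members and 93.6% at all genes. Of the 26 members of lowest GC content, 19 were called in all libraries, as were 19 of the middle 26 and 16 of the highest 26. Over all genes, split at their own GC content into 3 equal groups, the shares were 23.7%, 52.8% and 53.6% from lowest to highest.

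An opposing protein-coding gene started within 1 kb upstream at 26 of 78 members (33.3%), against 9.54% of all genes, 18.1% of cytosolic ribosomal protein genes and 27.4% of oxidative phosphorylation genes. Of these 26 members 19 (73.1%) were called in all libraries at canonical starts, against 35 of the other 52 (67.3%). Over all genes these shares were 82.1% with such a partner and 39.3% without. Among the partners, FAU (opposite MRPL49) encodes a cytosolic ribosomal protein, NDUFB5 (opposite MRPL47) a subunit of respiratory complex I, and PTCD2 (opposite MRPS27) a mitochondrial RNA-binding protein. At a shared start a peak cannot be assigned to either gene. MRPL46 and MRPS11 oppose each other and share 1 peak of mean −log10 q 15.3 in all 6 libraries, so they count as 2 members with 1 measurement.

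Motifs were searched on both strands from 250 bases before to 50 after the canonical start. The ETS motif CCGGAAGT was found at 15.4% of members and 6.22% of all genes, and the NRF1 motif GCGCANGCG at 19.2% and 10.9%. Neither share was particular to members. For ETS and NRF1 they were 15.7% and 19.3% at cytosolic ribosomal protein genes, and 15.5% and 31.0% at oxidative phosphorylation genes. The YY1 motif AANATGGCG was found at 23.1% of members, 4.97% of all genes, 15.7% of cytosolic ribosomal protein and 27.4% of oxidative phosphorylation genes. However, it contains ATG and overlaps the start codon of many genes. At members, 15 of 20 YY1 matches held an annotated start codon, and away from start codons the shares were 5.13% and 2.88%. In starts called in all 6 libraries, shares at members and all genes were 14.8% and 10.8% for ETS and 24.1% and 19.0% for NRF1. For YY1 they were 24.1% and 8.65%, which include matches at start codons. No share away from start codons was computed for these starts. The SP1 motif GGGCGG and the NFY motif CCAAT went the other way. In these starts SP1 was found at 64.8% of members and 77.5% of all genes, and NFY at 33.3% and 40.7%. TATAAA was found at 4 of 78 members (5.13%) and 9.83% of all genes. Among starts called in all 6 libraries the order was reversed, with 7.41% of members and 4.33% of all genes.

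Among starts called in all 6 libraries, peak strength was higher at members with CCAAT, the NFY motif. The median −log10 q was 27.7 for the 18 such members and 15.6 for the other 36, and over all genes it was 21.1 with CCAAT and 18.0 without. It was 19.4 for the 35 members with GGGCGG, the SP1 motif, and 15.3 for the other 19, against 19.7 and 17.7 over all genes. For ETS the medians at members were 18.6 with a match and 16.7 without, against 18.5 and 19.3 over all genes. For YY1 they were 18.3 and 17.3 at members, against 19.0 and 19.2 over all genes. For NRF1 members with a match were the lower, at 15.7 against 18.3 without, while over all genes the medians were 20.0 and 18.9. These are descriptions over members that differ in many ways, and no test was made.

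Annotated pseudogenes of these genes, copies that no longer encode the protein, were mostly without a peak at the start. Of 73 such pseudogenes on autosomes, 4 or 5 were called per library. MRPL42P1, MRPL48P1, MRPS31P4 and MRPS31P5 were called in all 6 libraries and MRPS16P1 in 2. The MRPL48P1 peak had a −log10 q of 33.5 and 38.9 in the old buffer, 26.7 and 33.0 in the purified and 34.8 and 32.1 in the unpurified new buffer, above the mean of 9.89 ± 2.49 (SD, n = 4) at the parent gene MRPL48. MRPS31P4 had a −log10 q of 20.7 to 30.9 and MRPS31 itself a mean of 19.0 ± 4.76 (SD, n = 6). Reads that fit near-identical copies can be lost to the filter for alignment quality or be misplaced, so these values are uncertain. Neither was tested.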

How the data were processed

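Peak lists of 6 ATAC-seq libraries of GM12878 were analysed, grouped by the sample labels. Per the methods of the study, the authors mapped trimmed paired reads to hg19 with Bowtie2 2.1.0, kept high-quality proper pairs, removed duplicates with Picard 1.79 and mitochondrial reads, called narrow peaks with MACS2, and filtered nuclear copies of mitochondrial DNA and blacklisted regions. For MACS2, its version is not given in the sources used here. Those methods describe merging reads by condition, but there was 1 list per library. The deposited values are a display score, from which nothing was computed, the fold enrichment of the summit over local background, and its −log10 p and −log10 q, the lowest −log10 q being 2.01. DESeq was named by the submitters and was not used, because the files hold no counts.

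Gene starts came from GENCODE version 44 mapped to GRCh37. For each start the strongest peak overlapping 1 kb on either side was kept. Rank percentiles were within a library (100 is strongest). Summit reads, whose number limits the precision of a peak, were the whole number that gives both the deposited fold enrichment and p-value. The libraries are too few for outlier tests, and samples with the same replicate number did not deviate together.

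The 52 regions at members were tested with limma 3.58.1 (R 4.3.3) within all 20064 regions called in every library, with Benjamini-Hochberg adjustment over all. Scripts were tested on simulated data. Other steps used Python 3.11.15 and pandas 2.3.3.

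Members and lists were chosen with earlier results of these data known. Named members were the 6 strongest, the 4 weakest called in all libraries, up to 12 called in fewest libraries, those called in both libraries of a protocol and neither of another, the 3 broadest, 3 narrowest and 3 with the farthest summit, and 11 with known roles. The limma comparisons also name the regions of lowest adjusted p, chosen after their values were seen, as were the partners and pseudogenes named. Some marker genes are not reported here.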

Additional observations from a re-analysis of the deposited data

How the results depend on the processing

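The share of members called stood above that of all genes by 33.1 percentage points on average over the 6 libraries, by 32.3 to 33.8 with each library left out, and by 31.5 to 34.3 under the other settings. The limma count of regions at members that changed was 0 in each of the 3 comparisons, without centring, with summit reads in place of fold enrichment, with regions called in at least 5 libraries, with a replicate block and with each replicate left out.

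The differences between protocols in share called, width, summit distance and rank moved by more than the spread between replicates in 9 of 84 cases, all of them in width or summit distance and given here in bp. With peaks of −log10 q of at least 5, purified minus old buffer was 32.0 in width and -17.75 in summit distance, and unpurified minus purified was 22.5 in summit distance. With the starts of all protein-coding transcripts, purified minus old buffer was 35.5 in width and -29.75 in summit distance, unpurified minus old buffer -8.0 in summit distance and unpurified minus purified 21.75. At canonical starts, chosen after seeing the data, unpurified minus old buffer was -5.0 and unpurified minus purified 10.0 in summit distance. The cause was not tested. A window of 500 bp or 2 kb, an equal number of 30136 peaks per library, or the summit in the window moved none of the differences beyond that spread. Of the 38 named members, the number of libraries with a call changed at 10 with −log10 q of at least 5, 8 with equal numbers of peaks, 6 at canonical starts, 5 with all transcript starts, 3 with the narrower window, 1 with the wider and 1 with the summit in the window.

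The labels do not say whether libraries with the same replicate number share an origin. Deviations of same-numbered libraries correlated at -0.00080 to 0.015. This cannot show separate origins, since centring each library on its median removes differences common to a whole library. The paired differences (replicate block) equal the unpaired ones, 3.21, 5.13 and 1.92 percentage points in share called for purified minus old buffer, unpurified minus old buffer and unpurified minus purified.

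Leaving out each replicate in turn, and in that order of comparisons, the difference in share called ran from -1.92 to 8.33, 3.21 to 7.05 and -3.21 to 7.05 points. The difference in width ran from -5.25 to 27.75, 1.25 to 82.25 and -10.0 to 71.0 bp. In summit distance it ran from -15.25 to -10.75, 2.5 to 7.0 and 15.5 to 20.0 bp, and in rank percentile from -0.51 to 4.98, -1.43 to 4.07 and -1.92 to 0.088. The sign of the differences in share called and width against purified libraries, and of those in rank, thus turned with a single replicate. Peaks with few reads pass or miss the caller's threshold, so a missing call is no evidence of absence.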
